A study of Rattus norvegicus with 12 samples.

Results

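The genes described here encode the subunits of oxidative phosphorylation, measured in rat pituitary cultures enriched for gonadotropes, the cells that make luteinizing hormone and follicle-stimulating hormone. Members were all genes whose symbol begins with Nduf, followed by a, b, c, s or v and a digit, with Uqcr, with Cox4 to Cox8, or with Atp5, together with Sdha, Sdhb, Sdhc and Sdhd. The choice used gene names and not their response, and each gene was represented by its brightest probe set. The rule found 79 genes among the 14217 genes that the array names by a single symbol. By complex, 35 belonged to complex I, 4 to complex II, 7 to complex III, 17 to complex IV and 16 to complex V. A filter on low signal kept 74 of them, and Cox4i2, Cox6b2, Cox7b2, Cox8b and Ndufb8 fell below it. Membership follows the names: Ndufa4 was counted in complex I although its protein is known as a cytochrome c oxidase subunit, Cox6c-ps1 is a pseudogene, and Atp5if1 encodes an inhibitor of the ATP synthase. Cyc1, the cytochrome c1 of complex III, has a name outside the rule and was counted with the electron carriers instead.

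All 12 samples were primary cultures from the anterior pituitaries of adult female Sprague-Dawley rats, which had been ovariectomized for 2 weeks. Large cells were collected by sedimentation from 13 to 15 pituitaries per experiment, so each preparation pooled animals, and cultured in medium with estradiol and charcoal-treated serum. On day 3, 6 samples received gonadotropin-releasing hormone (GnRH, 10 nM) and 6 received vehicle, both for 40 min. The labels name 3 enrichment sets, I, II and III, and each held 2 vehicle and 2 GnRH samples, vehicle 1 and 2 and GnRH 1 and 2 being set I. RNA passed through a pair of rounds of T7 amplification before hybridisation to Affymetrix expression arrays for the rat. Samples were labelled biological replicates, but nothing said whether they came from separate cultures, so p-values measure the spread between these samples, part of which may be technical.

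The labels gave 40 to 60% of the collected cells as positive for luteinizing hormone, against under 7% before collection. All 6 gonadotrope markers passed the filter, with median signals of 69247 for Lhb and 221300 for Cga, the hormone subunit genes, and 217 for Gnrhr, the GnRH receptor. Genes of other pituitary cells were also bright, with median signals of 334523 for Gh1 and 59916 for Prl, so the cultures were mixed. In such bulk samples, fewer cells of a type and less RNA per cell cannot be told apart.

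Oxidative phosphorylation couples electron transport to ATP synthesis in the inner mitochondrial membrane. Complex I and complex II pass electrons from NADH and succinate to ubiquinone, complex III passes them to cytochrome c, complex IV reduces oxygen, and complex V uses the resulting proton gradient to make ATP. The genes measured here lie in the nucleus, spread over 20 chromosomes, and a further core group of subunits is encoded by mitochondrial DNA. Nuclear respiratory factor 1 (NRF1), the ETS factor GABPA and YY1 are known regulators of many nuclear subunit genes. In endocrine cells, mitochondrial ATP is used for hormone synthesis and secretion, and hormone release raises the demand for it.

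The promoters of 5 members are shown because they differ in these factors' motifs, while the same members recur in the values that follow. Each line gives the 120 bases just before the annotated start site, 5′ to 3′ on the gene's strand, from RefSeq on the GRCr8 assembly. Capitals mark bases that match GCGCANGCG (NRF1), CCGGAAGT (ETS) or AAGATGGC (YY1) on either strand.
Ndufa11, chr9:1637494-1637613, plus strand: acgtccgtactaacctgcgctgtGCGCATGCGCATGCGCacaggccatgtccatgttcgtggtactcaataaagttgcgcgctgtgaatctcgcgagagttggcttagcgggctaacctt
Cox7a2l, chr6:16936454-16936573, plus strand: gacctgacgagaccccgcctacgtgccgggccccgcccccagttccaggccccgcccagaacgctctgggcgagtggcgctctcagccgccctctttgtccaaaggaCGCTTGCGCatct
Ndufb3, chr9:67623297-67623416, plus strand: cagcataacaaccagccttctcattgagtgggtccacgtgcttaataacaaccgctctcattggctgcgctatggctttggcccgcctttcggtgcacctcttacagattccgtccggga
Sdha, chr1:30764433-30764552, plus strand: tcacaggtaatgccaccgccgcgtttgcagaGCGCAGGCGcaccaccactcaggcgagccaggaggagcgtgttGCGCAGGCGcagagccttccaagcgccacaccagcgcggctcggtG
Cox8a, chr1:213833624-213833743, minus strand: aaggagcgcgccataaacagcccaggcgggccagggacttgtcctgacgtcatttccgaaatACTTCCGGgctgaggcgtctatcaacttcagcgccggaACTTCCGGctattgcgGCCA
Ndufa11 held overlapping NRF1 matches on both strands, since the motif is close to its own reverse complement. Cox7a2l held 1 NRF1 match, Sdha held 3, and Cox8a held 2 ETS matches and 1 YY1 match. The last match of Sdha and of Cox8a runs on past the start site. Ndufb3 held none of these letters in the 300 bases searched.

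Of 79 members, 71 had a promoter in the RefSeq table, searched from 250 bases before to 50 bases after the start site. NRF1 matches were in 17 of the 71 (23.9%), against 5.80% of all 33469 promoters and 12.5% of the 10056 promoters of genes that passed the signal filter. YY1 matches were in 16 (22.5%), against 3.17% and 5.23%, and ETS matches in 8 (11.3%), against 3.81% and 7.71%. Any of the 3 motifs was in 35 promoters (49.3%), against 11.6% and 22.5%. The median GC content of the members' promoters was 56.0%, against 51.7% for all promoters and 60.7% for those of filtered genes. Of the 16 members with a YY1 match, 14 (87.5%) had its first base between 10 bases before and 50 after the start site, against 60.3% among filtered genes with a match. By complex, any motif was in 18 of 33 promoters for complex I, 2 of 4 for complex II, 3 of 6 for complex III, 3 of 13 for complex IV and 9 of 15 for complex V. A match is a string in the sequence and does not show that a factor binds there.

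Some arrays stood apart. Spike-in controls, bacterial transcripts added at fixed amounts, had a geometric mean signal of 2264 to 11705 on 5 arrays (all of set I and vehicle 5 of set III) and of 53482 to 320024 on the other 7. Vehicle 3 of set II ordered the genes least like the rest: its rank correlations (Spearman) with the 11 others had a median of 0.376, while this median was 0.623 to 0.715 for every other array. The log2 ratio of the 3′ over the 5′ Gapdh probe set, a measure of transcript coverage, was 4.48 to 5.45 in set I, 2.96 to 4.37 in set II and 3.60 to 4.27 in set III. For Actb this ratio overlapped between sets, at 4.16 to 4.82 in set I, 2.45 to 4.16 in set II and 3.36 to 4.90 in set III.

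At 40 min of GnRH, no subunit gene passed the threshold in either direction. Of the 74 members tested, 0 had an adjusted p below 0.05 (limma moderated test with enrichment set as a block, Benjamini-Hochberg over 18625 probe sets), and 0.00936% of the 10680 genes tested did so, which is 1 gene. At an unadjusted p below 0.05 the count was also 0 of 74, against 3.29% of genes. The adjusted p-values of the members ran from 0.981 to 1.00. GnRH minus vehicle was above 0 for 44 members and below 0 for 30, with a median log2 difference of 0.10 against 0.04 over all genes tested. Set by set the median was 0.07, 0.16 and 0.06 for the members and -0.0012, 0.22 and -0.08 for all genes tested (sets I, II and III).

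These values came with moderate precision. The 95% interval of the difference lay within a 2-fold change in both directions for 51 of 74 members (68.9%), against 34.2% of all genes tested. It lay within 1.5-fold for 9 members, against 235 of the 10680 genes tested. These 9 were Atp5if1, Atp5mpl, Cox6a1, Ndufa6, Ndufb4, Ndufv3, Sdha, Sdhd and Uqcr10, named here after their values were seen. The members were also brighter than the genes tested, with a median log2 signal of 11.39 against 9.17. Their median residual SD was lower, at 0.48 against 0.73, so these shares do not compare genes of like signal. The difference was above 0 in all 3 sets for 16 members (21.6%), against 12.3% of genes, and below 0 in all 3 for 11 (14.9%), against 11.4%. GnRH and vehicle signals were fully separate for 0 of 74 members, against 0.131% of genes.

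**Figure D1:**
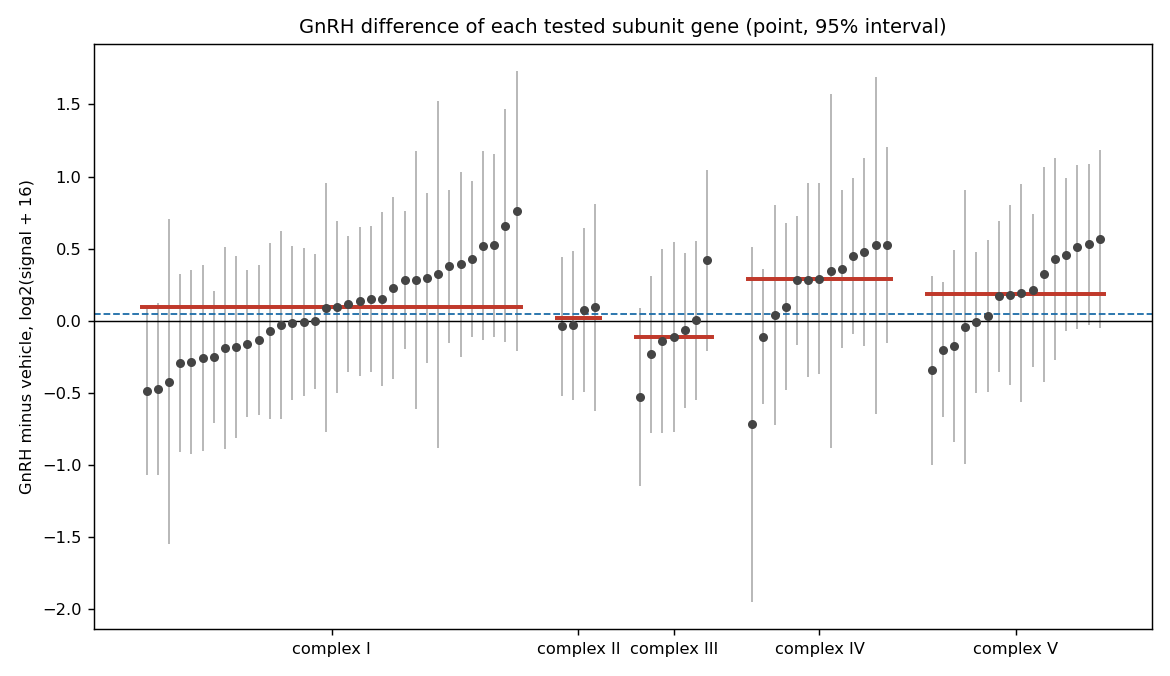
GnRH minus vehicle difference (log2, y axis) of each tested subunit gene, grouped by complex on the x axis. Points are genes with grey 95% intervals, red lines are the medians of each complex, from -0.11 for complex III to 0.29 for complex IV, and the dashed blue line is the median of all genes tested, 0.04.

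The study's own criterion asked for a change of at least 1.5-fold and for at least 50% of the pairwise array comparisons to show it. It was met upwards by 1 of 74 members, against 5.79% of genes, and downwards by 0 of 74, against 6.24%. The single member was Ndufb1, an accessory subunit of complex I, named after its value was seen. Its signal was 346, 1072 and 2348 (lowest, median and highest) in the 6 vehicle samples and 796, 1579 and 2586 in the 6 GnRH samples. The groups overlapped over most of their range, and the lowest values were those of vehicle 3 and 4. The difference was 0.66 ± 0.38 (log2, SE), or 1.58-fold, with 52.8% of the pairs showing it. By set it was 0.27, 1.86 and -0.15, so set II carried it. Its adjusted p in limma was 0.981.

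In complex I, the NADH dehydrogenase, 18 of 34 members were higher and 16 lower, with a median of 0.09. That median ran from -0.0055 (without vehicle 5) to 0.10 with single arrays left out. The core subunits that carry electrons gave -0.03 ± 0.31 for Ndufv1, which binds NADH and flavin, 0.13 ± 0.24 for Ndufs1 and -0.47 ± 0.28 for Ndufs7, which carry iron-sulphur clusters. Ndufs7 signals were 1459, 2029 and 4267 in vehicle and 1169, 1759 and 2090 in GnRH samples. Its difference was -0.58, -0.72 and -0.13 in the 3 sets, below 0 in each, and the groups overlapped. Without vehicle 2, the highest array, the difference was -0.29. Ndufs8, another iron-sulphur subunit, had the smallest unadjusted p of complex I (0.0962 in limma), at -0.49 ± 0.28. Its signals were 857, 1619 and 1873 in vehicle and 680, 1051 and 1547 in GnRH samples, again overlapping. Ndufa4 gave 0.52 ± 0.30, with signals of 1778, 2447 and 9863 against 2062, 3592 and 11123. It was 0.26 without vehicle 5.

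The highest difference of any member was that of Ndufa1, an accessory subunit needed for complex I assembly, at 0.76 ± 0.46. Its signals were 2264, 20206 and 30197 in vehicle and 15213, 25970 and 33827 in GnRH samples. The lowest value was that of vehicle 3, and the other 11 arrays lay between 13078 and 33827. Without vehicle 3 the difference was 0.25. Set by set it was -0.0031, 1.91 and 0.38.

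Complex II, succinate dehydrogenase, has 4 nuclear subunits and all were measured. Differences were -0.03 ± 0.24 for Sdha, the flavoprotein, 0.07 ± 0.27 for Sdhb, the iron-sulphur protein, and 0.09 ± 0.34 and -0.04 ± 0.23 for the membrane anchors Sdhc and Sdhd. Sdha signals were 1505, 2047 and 3785 in vehicle and 1198, 2138 and 3835 in GnRH samples. The ranges were nearly the same in both groups. All 4 genes had 95% intervals within a 2-fold change in both directions.

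Complex III, the cytochrome bc1 complex, had a median of -0.11, with 2 of 7 members higher and 5 lower. Set by set the median was -0.26, 0.19 and 0.07, so sets II and III had the other sign. Uqcrq, also called the ubiquinone-binding protein, gave -0.53 ± 0.29 and was below 0 in each set, at -0.61, -0.96 and -0.02. Its signals were 6112, 8623 and 18503 in vehicle and 5343, 7319 and 7988 in GnRH samples, with the highest value in vehicle 3, and without vehicle 3 the difference was -0.28. Uqcrh, the hinge protein that contacts cytochrome c1, ran the other way at 0.42 ± 0.30, and there vehicle 3 had the lowest signal, 2222, against 7171 to 11953 on the other arrays. Without vehicle 3 the difference of Uqcrh was 0.14. The core protein Uqcrc1 and the Rieske iron-sulphur protein Uqcrfs1 gave -0.14 ± 0.30 and -0.11 ± 0.31. The median of the complex ran from -0.20 to -0.05 when each array was left out in turn.

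Complex IV, cytochrome c oxidase, had a median of 0.29, with 11 of 13 members higher and 2 lower. Cox7c, a small membrane subunit, gave 0.45 ± 0.26 and was above 0 in each set, at 0.43, 0.21 and 0.70. Its signals were 1904, 2535 and 5039 in vehicle and 2112, 4429 and 7013 in GnRH samples, overlapping, and the difference was 0.27 without vehicle 5. Cox5b, which binds zinc on the matrix side, gave 0.53 ± 0.32, with signals of 4309, 5226 and 15000.4 against 4532, 8618 and 23760. Its difference was -0.07, 0.37 and 1.27 in sets I, II and III. In set III the low vehicle value, 5301, was that of vehicle 5, the set's array with low spike-in signal, and without it the difference of Cox5b was 0.24. Cox4i1 and Cox5a, the first subunits to join the catalytic core, gave 0.04 ± 0.36 and 0.28 ± 0.32. The median of the complex ran from 0.23 to 0.43 with single arrays left out, and was 0.05, 0.26 and 0.11 within sets I, II and III.

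Complex V, the ATP synthase, had a median of 0.18, with 11 of 16 members higher and 5 lower. It ran from 0.08 (without vehicle 1) and 0.09 (without vehicle 5) to 0.34 (without vehicle 6). The alpha and beta subunits of its catalytic head, Atp5f1a and Atp5f1b, gave -0.18 ± 0.32 and 0.19 ± 0.36. Atp5pf, the coupling factor 6 of the stalk, had the smallest unadjusted p of all members (0.0616 in limma), at 0.53 ± 0.26. That is 1.44-fold, with a 95% interval of 0.980- to 2.13-fold, and the adjusted p was 0.981. Atp5pf signals were 1649, 3456 and 4454 in vehicle and 3334, 4554 and 5164 in GnRH samples. The groups overlapped, although several GnRH samples lay above the highest vehicle sample, and vehicle 3 was lowest. The difference was above 0 in each set (0.45, 0.85 and 0.28), and 0.34 without vehicle 3. Atp5mc3, one of the genes for the rotor's c subunit, gave 0.57 ± 0.29, with signals of 6034, 10316 and 15757 against 11737, 14023 and 22761. The complex median was -0.10 in set II alone and 0.13 and 0.16 in sets I and III.

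Isoforms known from heart, skeletal muscle, lung or testis were dim here. Cox4i2, Cox6b2, Cox7b2 and Cox8b did not pass the signal filter, with median signals over 12 arrays of 59.5, 28.9, 51.6 and 25.3. Single arrays went higher, Cox7b2 reaching 849 in vehicle 3 and 576 in GnRH 4. Although untested, Cox7b2 met the study's criterion downwards, with 61.1% of pairs, on median signals of 55.7 in vehicle and 25.3 in GnRH samples. A further 15 bacterial control probe sets, named Dap, Lys, Phe, Thr or Trpn, averaged 90.04 where the spike-in signal was high (7 arrays). They averaged 15.5 where it was low (5 arrays). Whether transcripts for them had been added was not checked. Cox6a2 and Cox7a1, the muscle forms of their subunits, passed the filter with medians of 311 and 265. Cox6a2 had the lowest difference of any member, -0.72 ± 0.58, on signals of 133, 409 and 1264 in vehicle and 89.5, 285 and 572 in GnRH samples. The highest signal of Cox6a2 was in vehicle 3, and those of GnRH 3 and GnRH 5, 91.2 and 89.5, lay at the control level. Without vehicle 3 the difference of Cox6a2 was -0.27, and without vehicle 4 it was -1.04. Cox7a1 gave 0.52 ± 0.55, on signals of 95.5, 179 and 364 against 58.4, 281 and 475, and ran from 0.31 without GnRH 4 to 0.89 without GnRH 6. The muscle markers Ckm, Actn2 and Myh6 had median signals of 184, 273 and 391.

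More members differed between enrichment sets than between agents. The F test over the 3 sets called 7 of 74 members (9.46%), against 6.87% of genes tested, so the members' share was near the background. The F test names no pair of sets. By the pairwise tests, Ndufb3 and Cox7a2l were lower and Ndufa11 higher in both set II and set III than in set I. Uqcrc2 was lower in set II, Ndufa4 and Cox5a were higher in set III, and Cox6b1 passed in no pair. Complexes I and IV held 3 of these each, complex III held 1, and complexes II and V held 0. The count depended on single arrays. It was 2 without vehicle 1, vehicle 2, GnRH 1 or GnRH 2, 3 without vehicle 6, 15 without vehicle 3 and 18 without vehicle 5. The count over the whole array moved alike, from 1122 of 18625 probe sets to 127, 375, 137 and 175 without those 4 set I arrays in the same order, 664 without vehicle 6, 1648 without vehicle 3 and 2332 without vehicle 5.

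Ndufb3 (probe set 1373041_at), an accessory subunit of complex I, showed the widest gap. Its 4 signals in set I were 18178 and 16394 in vehicle and 18305 and 21282 in GnRH samples. In set II they were 1194, 2194, 3351 and 2856, and in set III 4831, 4988, 4093 and 7320, in the same order. The sets did not overlap, with set II lowest. Set II was 8.19-fold lower than set I (log2 difference -3.03 ± 0.31) and set III 3.55-fold lower (-1.83 ± 0.31), with an adjusted p of 0.000348 for the F test in limma and both pairs called. The call held under all 21 alternative settings.

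Cox7a2l (probe set 1371337_at), which promotes the joining of complexes III and IV into supercomplexes, had set I signals of 26642, 26635, 24945 and 26579. Set II gave 3142, 6653, 6824 and 7335 and set III 9878, 6267, 5530 and 7477. Set I lay far above both. The differences were -2.20 ± 0.34 and -1.88 ± 0.34, or 4.59- and 3.68-fold lower, with an adjusted p of 0.00365 for the F test in limma and both pairs called. Of the 21 alternatives, 20 kept this call. Uqcrc2 (probe set 1373362_at), a core protein of complex III, had signals of 3143 to 3848 in set I, 955 to 1714 in set II and 1127 to 2511 in set III. Its F test had an adjusted p of 0.0358 in limma. Set II minus set I was -1.35 ± 0.31 (adjusted p = 0.0154), and set III minus set I, at -1.002 ± 0.31, did not pass (adjusted p = 0.107). Of the alternatives, 12 of the 21 kept the F call.

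Turning to the other 4 members, Ndufa11 (probe set 1375220_at), a membrane-arm subunit of complex I, had signals of 662 to 952 in set I, 1856 to 3038 in set II and 1266 to 6823 in set III. It was 2.95-fold higher in set II and 3.66-fold higher in set III (1.56 ± 0.41 and 1.87 ± 0.41, pairwise adjusted p = 0.0243 and 0.0293 in limma, and 0.0253 for the F test). This call held under 15 of the 21 alternatives. Ndufa4 (probe set 1371323_at) had signals of 2016 to 2576 in set I, 1778 to 3661 in set II and 2734 to 11123 in set III. It was 3.13-fold higher in set III than in set I (1.65 ± 0.37, pairwise adjusted p = 0.0325 in limma, F test 0.0313), while set II minus set I, 0.40 ± 0.37, did not pass. The F call held in 13 alternatives. Cox5a (probe set 1375127_at) was 3.11-fold higher in set III (1.64 ± 0.39, pairwise adjusted p = 0.0419 in limma, F test 0.0444), and set II minus set I, 1.03 ± 0.39, did not pass (0.0858). Cox6b1 (probe set 1371321_at), which lies at the contact between the monomers of complex IV, passed the F test (adjusted p = 0.0446 in limma) but neither pair with set I. Its set III minus set I difference was 1.21 ± 0.32 (adjusted p = 0.0621) and that of set II 0.11 ± 0.32 (0.843). The F calls of Cox5a and Cox6b1 held in 6 and 9 alternatives.

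**Figure D2:**
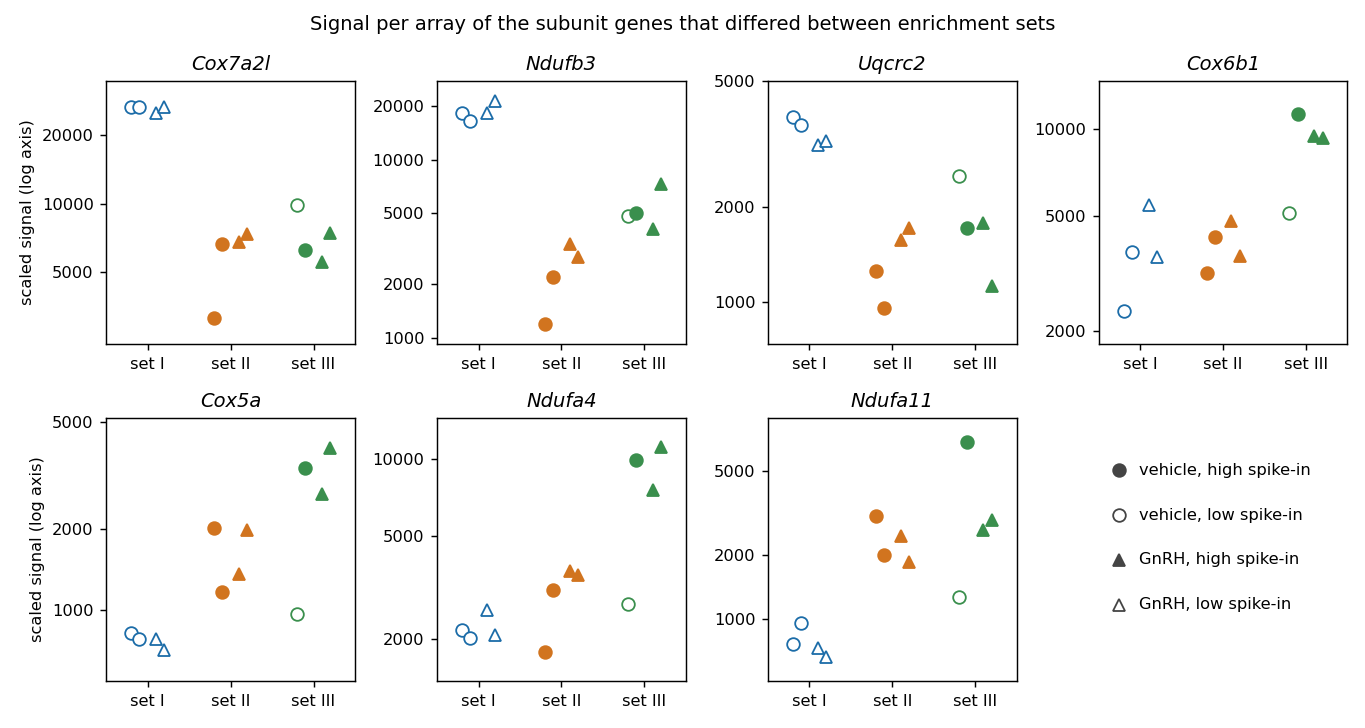
Scaled signal (y axis, log scale) on each of the 12 arrays, by enrichment set on the x axis, for the 7 members that differed between sets. Circles are vehicle, triangles GnRH, and open symbols the 5 arrays with low spike-in signal. Set I lies above the others for Ndufb3, Cox7a2l and Uqcrc2, while vehicle 5, the open symbol in set III, is the lowest of its set for Ndufa4, Cox5a, Cox6b1 and Ndufa11.

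Spike-in level moved with the sets. Of the 74 members, 42 (56.8%) had a higher mean where spike-in signal was high, against 47.8% of genes tested. Set III held both kinds of array, and there vehicle 5 with low spike-in signal can be set beside the other 3 arrays. For Ndufb3 vehicle 5 gave 4831, inside the 4093 to 7320 of the other set III arrays and far under set I. Cox7a2l on vehicle 5 gave 9878, between the 5530 to 7477 of the other set III arrays and the 24945 to 26642 of set I. For Ndufa4 and Cox5a it gave 2734 and 971, just above the highest set I values of 2576 and 824 and far under the 7543 and 2701 at which the rest of set III began. Uqcrc2 on vehicle 5 gave 2511, between the 1127 to 1780 of the other set III arrays and the 3143 to 3848 of set I. Ndufa11 gave 1266, between the 662 to 952 of set I and the 2609 to 6823 of the other set III arrays. Cox6b1 gave 5109, inside the 2342 to 5454 of set I and under the 9320 to 11295 of the other set III arrays. With the spike-in level as a further term, chosen after the data were seen, the F test called 1 member, Ndufb3 (adjusted p = 0.0390 in limma), and 26 of 18625 probe sets in place of 1122. Summed marker signals varied between and within sets too, although limma called 0 of the 6 gonadotrope markers and 0 of the 4 somatotrope and lactotrope markers. The 6 gonadotrope markers summed to 64561 to 99800 in set I, 250475 to 473414 in set II and 32142 to 494334 in set III, with none at 0 and most of the sum from Cga and Lhb. The set III range thus covered those of sets I and II, and its lowest sum was in a vehicle sample. Gnrhr went the other way with spike-in level, by -1.73 on the log2 scale against 2.76 for Cga. The 4 somatotrope and lactotrope markers summed to 74305 to 118472, 547174 to 1169600 and 36261 to 658111. The 2 corticotrope markers summed to 823 to 1685, 436 to 976 and 311 to 817, and 1 of them, Pomc, was called between sets. The part of spike-in level, transcript coverage and cell makeup in the set differences was not tested beyond these values.

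Between pairs of sets, set II against set I called 9 members (12.2%) where 13.5% of genes were called, 3 higher and 6 lower. The members that this pair added were Atp5mg (1.84 ± 0.55) and Ndufa5 (1.61 ± 0.50), which were higher in set II, and Ndufs4 (-2.08 ± 0.52), Uqcr10 (-1.29 ± 0.32) and Ndufc2 (-1.18 ± 0.35), which were lower. Atp5mg and Ndufa5 were dim, with signals of 62.2 to 174 and 150 to 241 in set I. In set II they were 222 to 655 and 342 to 816. The bacterial control probe sets also averaged less on low spike-in arrays (15.5), which include set I, than on high ones (90.04), which include set II. The part of this background in the 2 differences was not tested. Ndufs4, a late-assembling subunit of complex I, had signals of 1216 to 3491 in set I and 131 to 944 in set II, without overlap. Set III against set I called 5 members (6.76%), against 2.28% of genes, 3 higher (Ndufa4, Ndufa11, Cox5a) and 2 lower (Ndufb3, Cox7a2l). The members were brighter than the genes tested and had a lower residual SD, so these shares do not compare genes of like signal. Set III against set II called 0 members, against 0.00936% of genes. The median over the members was -0.03 for set II minus set I and 0.22 for set III minus set I, against -0.12 and 0.02 over all genes tested.

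Whether the GnRH difference itself varied by set was tested as an interaction. It called 0 of 74 members and 0% of genes at an adjusted p below 0.05. Without the adjustment, 0 of 74 members and 547 of the 10680 genes tested had a p below 0.05 in this test. Atp5pb, the peripheral stalk subunit b of the ATP synthase, came lowest in this test (adjusted p = 0.927 in limma), with GnRH minus vehicle at 0.79 for set I, 0.50 for set II and -0.75 for set III.

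The median log2 signal over all tested members ran from 11.11 in vehicle 3 to 11.97 in vehicle 6. GnRH samples lay between 11.39 and 11.59, inside the vehicle range. Complex II stayed within 10.12 and 11.04, with GnRH 6 lowest. Complex III varied most, at 11.13 in vehicle 3 and 12.08 to 13.14 on the other arrays. Complex I was highest in vehicle 6, at 11.69, where the other arrays lay between 10.67 and 11.28.

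**Figure D3:**
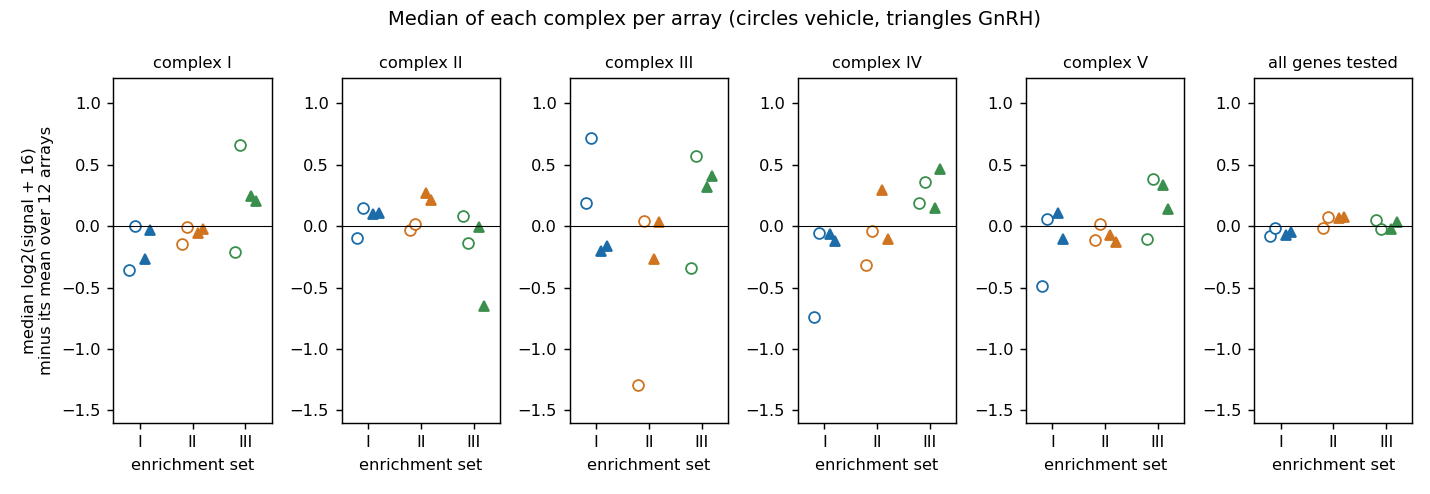
Median log2 signal of each complex per array, minus its mean over the 12 arrays (y axis), by enrichment set on the x axis. Open circles are vehicle and filled triangles GnRH. Complex III in vehicle 3 of set II is the lowest point, and vehicle 6 of set III is the highest of complex I.

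Across arrays the subunit genes varied together only loosely. Over the 2701 pairs of tested members, the median Pearson correlation across 12 arrays was 0.14, with an interquartile range of -0.20 to 0.44, against 0.01 for pairs of all genes tested. Pairs within a complex had a median of 0.16 and pairs between complexes 0.13. After each set's mean was subtracted, both medians were 0.14. Complex V had the highest median within a complex, 0.23, and complex III the lowest, 0.10. Without vehicle 3 the complex III median was 0.32 and that over all members 0.14. The pairs share their arrays, spike-in level and sets, so these values are a description.

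The closest pairs crossed complexes as well as staying within them. Cox5b and Cox8a, both of complex IV, correlated at 0.961, and each followed Ndufa4 (0.948 and 0.937). These 3 genes were highest in set III apart from vehicle 5. Cox7a2l and Ndufb3 correlated at 0.943, both being high in set I. Ndufa1 and Uqcrh correlated at 0.932, both with their lowest signal in vehicle 3. The most opposed pair was Ndufa5 and Ndufc2 (-0.915), which differed between sets II and I in opposite directions. Cox6b1 had the highest median correlation with the other members, 0.377, and Sdhd the lowest, -0.291.

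**Figure D4:**
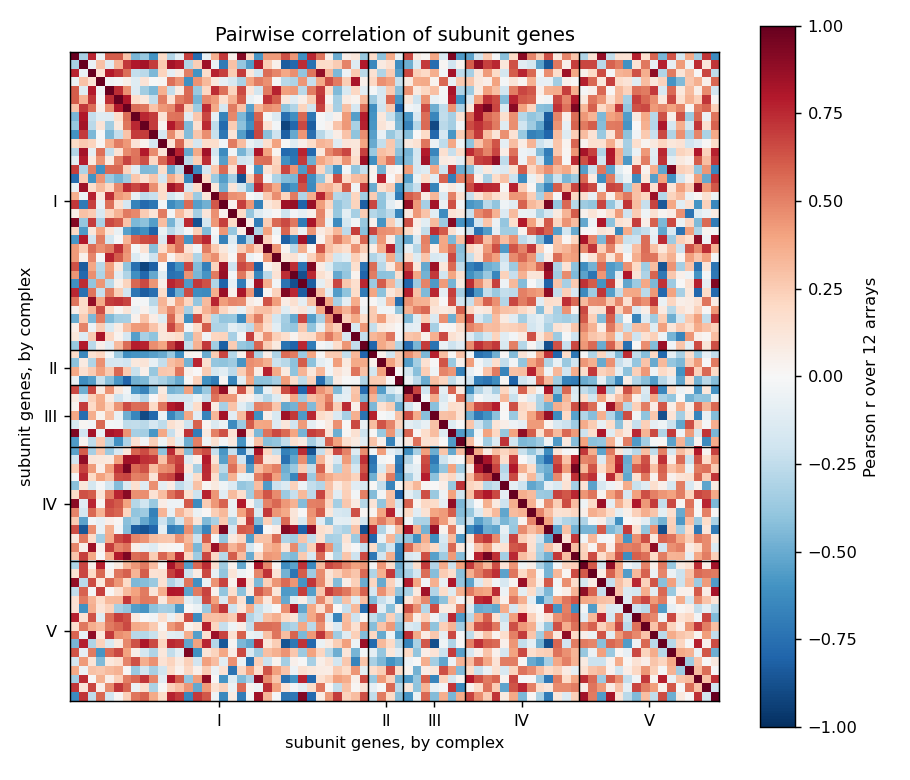
Pearson correlation across the 12 arrays for each pair of the 74 tested members, ordered by complex on both axes, with colour from -1 to 1. Blocks along the diagonal are the complexes, whose median correlations lie between 0.10 and 0.23, and they do not stand out from the rest.

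Other mitochondrial genes gave a like picture, and 0 genes of these lists passed the adjusted threshold for GnRH. Of 35 tested assembly factors of the respiratory complexes, 19 were higher and 16 lower, with a median of 0.06. Cox16 (0.78 ± 0.25, unadjusted p = 0.00629, adjusted p = 0.981, limma) and Cox17 (0.70 ± 0.28), the copper chaperone of complex IV, had the smallest p of that list. Cox16 signals were 640 to 2356 in vehicle and 1724 to 3491 in GnRH samples, overlapping, with a difference above 0 in each set. Of 15 genes of the TCA cycle and pyruvate dehydrogenase, 11 were higher and 4 lower, with a median of 0.20. Dlst, part of the 2-oxoglutarate dehydrogenase, gave 0.73 ± 0.26 on signals of 976 to 1788 against 1449 to 3094. Of 73 mitochondrial ribosomal protein genes, 47 were higher and 26 lower, and the median, 0.10, was that of the subunit genes.

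The electron and metabolite carriers had a median of 0.01 (6 of 12 higher), with -0.43 ± 0.23 for Cyc1, the cytochrome c1 of complex III. Mitochondrial protein import had a median of 0.10 (11 of 16 higher) and glycolysis 0.01 (7 of 14 higher). Timm13, an import chaperone of the intermembrane space, gave -0.75 ± 0.32. Regulators of mitochondrial biogenesis had a median of -0.07 (5 of 12 higher), with -0.65 ± 0.43 for Nrf1 and -0.51 ± 0.47 for Ppargc1b, a coactivator. Between sets, 4 of 35 assembly factors, 7 of 73 mitochondrial ribosomal protein genes and 1 of 16 import genes were called, shares of 11.4%, 9.59% and 6.25% beside the 6.87% of all genes tested. Glycolysis had 2 of 14 (14.3%), the TCA list 1 of 15 (6.67%), and the carriers and the biogenesis regulators 1 of 12 each (8.33%). The import gene was Tomm20, a receptor of the outer membrane, with values against set I of -2.45 in set II and -1.56 in set III (adjusted p of the F test 0.00611 in limma).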

How the data were processed

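The deposited values were microarray intensity signals, 1 per probe set and array, which the authors made with the Affymetrix operating software GCOS, per the series' design text; no label or header states the settings of that software. Arrays were then scaled so that the trimmed mean of each was 500 (2% cut at each end), and signals were transformed as log2(signal + 16). Probe sets above the 40th percentile of mean log2 were tested (18625, of which 10680 genes by their brightest single-symbol probe set). Fold changes are on this log2 scale and understate changes of low signals. Tests used limma 3.58.1 in R 4.3.3 (lmFit, eBayes with an intensity trend) with terms for agent and enrichment set, adjusted over all tested probe sets at 0.05. The fit was also run on simulated data with a smaller residual SD than the median of these genes. That run checks the code and not the power in these data. The members and lists were chosen with earlier results of these data known. Named genes were core subunits, tissue isoforms, those with the smallest p in each complex or list, the extremes and all called members. Of 31042 probe sets other than controls, 20826 had a single gene symbol, 436 several and 9780 none, and 7 that match the rule with several symbols were left out. Of the members, 8 had more than 1 probe set. Atp5if1 was the main disagreement, with GnRH differences of -0.01, -0.0047 and -0.79.
The number of arrays limits the precision. Alternatives changed the pseudocount, the filter, the normalization, the weighting, the arrays included and the model.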

Additional observations from a re-analysis of the deposited data

Results flagged for a closer look

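Single arrays stood apart in 12 of 119 groups. Each group was checked by the gap of the outermost array to the next, as a share of the group's range (values in brackets). A rate of 1 in 20, for independent groups of like arrays, would give 5.95. These groups share arrays and many span the enrichment sets, so the count cannot show an excess over chance. Vehicle 3 was lowest among vehicle samples for Ndufa1 (0.676) and Uqcrh (0.766), and lowest in set II for Cox7a2l (0.885). Vehicle 6 was highest among vehicle samples for Ndufa4 (0.677) and for the median of complex I (0.648), and lowest for Sdhd (0.785). GnRH 6 was lowest among GnRH samples for Cox7a1 (0.704), Uqcrfs1 (0.652) and the median of complex II (0.702). GnRH 3 was highest among GnRH samples for Cox4i1 (0.694). In set I, GnRH 1 was lowest for Cox7a2l (0.964), by 14.61 against 14.70 on the log2 scale, and vehicle 1 was lowest for the median of complex IV (0.906), by 11.20 against 11.82.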

How the results depend on the processing

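GnRH called 0 members in every limma fit tried, and the interaction called 0 as well. Over the whole array, the interaction called probe sets only without vehicle 4, which leaves vehicle 3 as the only vehicle array of set II. The study's criterion of fold and concordance called 1 of the 74 tested members, and Cox7b2, under the signal filter, met it downwards. The median GnRH difference of the members, 0.10, stayed between 0.02 (quantile normalization) and 0.16 (set II alone, and the upper end without single arrays, whose range was 0.05 to 0.16). Enrichment sets called 7 members, against 12 with median centring, 26 with array weights, 2 without the intensity trend, 1 with the spike-in level as a covariate (added after the data were seen), and 2 to 18 without single arrays. Other settings gave 6 to 10. The count over all 18625 probe sets moved too, from 1122 to 1656 with median centring and 4529 with array weights. It was 503 without the intensity trend and 26 with the spike-in covariate, which overlaps with the sets. Over the 34 named genes, 101 of 950 alternative GnRH values had the other sign and 0 passed the threshold. No called difference changed sign, but most set calls were lost under some setting: Cox5a kept its call in 6 of 21, Cox6b1 in 9, Uqcrc2 in 12, Ndufa4 in 13 and Ndufa11 in 15, while Cox7a2l kept it in 20 and Ndufb3 in 21. The numbering of samples was also used as a replicate block: 0 members were called and the median stayed at 0.10. Deviations of same-numbered samples from their group means correlated at -0.22 to 0.65. Once the mean of each agent within each set was removed, they correlated at -0.14 to -0.03. With 2 samples per agent and set, each of these values occurs for 2 numbers, so they cannot decide whether the numbers pair samples. Low signal limits the 5 untested members and, among those tested, Cox6a2, Cox7a1, Cox6c-ps1 (35.1 in vehicle 3), Ndufa4l2 (70.8 in vehicle 4) and Ndufb6 (92.8 in GnRH 6), which lay near or below the control level on some arrays.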

Other observations

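In the lists of other mitochondrial and glycolytic genes, the genes called between enrichment sets differed in both directions. The adjusted p-values here are those of the limma F test over the 3 sets, and single pairs of sets are given as values only. Relative to set I, Sdhaf2, an assembly factor of complex II, had log2 differences of -1.91 in set II and -1.33 in set III (adjusted p = 0.0111). Cox11, a copper-handling assembly factor of complex IV, gave 3.23 and 1.85 (adjusted p = 0.0414), and Cox10, a haem-synthesis enzyme for the same complex, gave -2.54 and -0.65 (adjusted p = 0.0225). Idh3a, a subunit of the NAD-dependent isocitrate dehydrogenase, gave 1.51 and 1.32, and Gpi, a glycolytic isomerase, by 1.83 and 0.98. Of the 7 mitochondrial ribosomal protein genes called, Mrpl52 had the smallest adjusted p (0.00715), at 1.48 and 2.04. These genes were named after their values were seen, and spike-in level moved with the sets here as well.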
